A study of Homo sapiens with 4 samples.

Results

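The ISG15 conjugation and deconjugation system was examined in A549 cells, a human lung adenocarcinoma line, through the 6 genes of the deposited table whose symbols are ISG15, UBA7, UBE2L6, HERC5, HERC6 and USP18. They are 6 of 28278 gene rows, and all 6 passed the filter on low counts that left 17271 genes for testing. Constructs were delivered by lentiviral infection to make stable lines, of which one carried the control construct (group Control, genotype label WT, 2 libraries) and the other a CBX7 expression construct (group OE_CBX7, genotype label CBX7 overexpression, 2 libraries). Both lines were infected and grown alike in medium with serum, so no library comes from untransduced cells. The labels do not tell whether the 2 libraries of a line are separate cultures, and p-values may therefore reflect technical spread alone. The labels do not say whether either line was a clone.

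ISG15 is a ubiquitin-like protein that is made in large amounts when cells sense interferon, and it is attached to lysines of other proteins by an enzyme cascade parallel to that of ubiquitin. UBA7 (the E1) activates it, UBE2L6 (the E2) carries it, and HERC5 (the E3) places it on newly made proteins in human cells. HERC6 is the close relative of HERC5 and has the main ligase role in mice. USP18 is the protease that removes ISG15 from its targets, and it also binds the interferon receptor subunit IFNAR2 and dampens signalling there. In epithelial cells of the airway this system is part of the antiviral response.

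Library totals ranged from 69877585 to 90765502 estimated counts. CBX7, the targeted gene, had 689 and 596 counts in the control libraries against 1783 and 1550 in the CBX7 libraries, a log2 change of 1.11 (SE 0.156, adjusted p = 0.000141). SOCS3, the gene of the series title, fell from 42.3 ± 2.12 to 9.67 ± 2.04 CPM (SD, n = 2). CPM is the count per 1000000 counts of a library's total over the tested genes, multiplied by its TMM scaling factor. A log2 change is the log2 of the fold change of CBX7 over control. Of 14 markers fixed for A549 and lung adenocarcinoma cells, 9 were at 1 CPM or more in every library, with KRT8 and ALDH1A1 among the highest. The surfactant genes SFTPB and SFTPC had at most 10 counts. EPCAM was at 0.650 CPM in control library 1, and NAPSA was at 0.255 to 0.660 CPM over the 4 libraries. NKX2-1 was at 0.302 and 0.469 CPM in the controls and 1.27 and 1.09 in the CBX7 libraries. CDKN2A, which A549 cells have lost, had at most 5 counts. Of 8 leukocyte markers, CD3E and MS4A1 were at 0 and PTPRC had at most 9 counts. The summed leukocyte list was 166 to 171 CPM in the controls and 27.1 to 27.6 in the CBX7 libraries, of which CD68, a lysosomal protein, made up 158 to 165 and 23.6. Fibroblast markers summed to 5.31 to 8.47 and endothelial markers to 0.836 to 3.68 over the 4 libraries. The part of these other markers in the results below was not tested.

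All 6 genes were lower in the CBX7 line than in the control line, by 10.0-fold to 146-fold, and in none did the libraries of the 2 lines overlap. The modifier ISG15 went from 1035 ± 106 to 7.08 ± 3.47 CPM (SD, n = 2), the E1 gene UBA7 from 42.7 ± 7.78 to 0.621 ± 0.345 and the E2 gene UBE2L6 from 391 ± 17.4 to 12.7 ± 0.358. The 2 HERC genes, neighbours on chromosome 4, fell unequally: HERC5 went from 366 ± 37.3 to 5.57 ± 0.686 and HERC6 from 139 ± 5.51 to 13.9 ± 1.19. The protease gene USP18 went from 288 ± 13.05 to 18.3 ± 0.771. In whole cultures, fewer cells expressing a gene and less RNA per cell cannot be told apart.

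Each of the 6 passed the edgeR quasi-likelihood test at a Benjamini-Hochberg adjusted p under 0.05, and all 6 were lower. Over all tested genes 24.4% were called, 13.9% as lower, and 31.9% were lower with no overlap between the groups. Only 2.62% of tested genes were called with a log2 change of -2 or less, a range that holds all 6. The median log2 change of the 6 was -5.49, against -0.00015 over all tested genes. The members were taken up with earlier results of these data known, so these figures describe the genes and do not test the set. Over all tested genes 1809 were higher and 2399 lower, and with library totals in place of TMM the split was 2487 higher and 2033 lower. Without CBX7 library 1 the higher calls were 1021 and the calls in all 2729, and without CBX7 library 2 the higher calls were 1121. All 6 members were lower with library totals too.

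**Figure D1:**
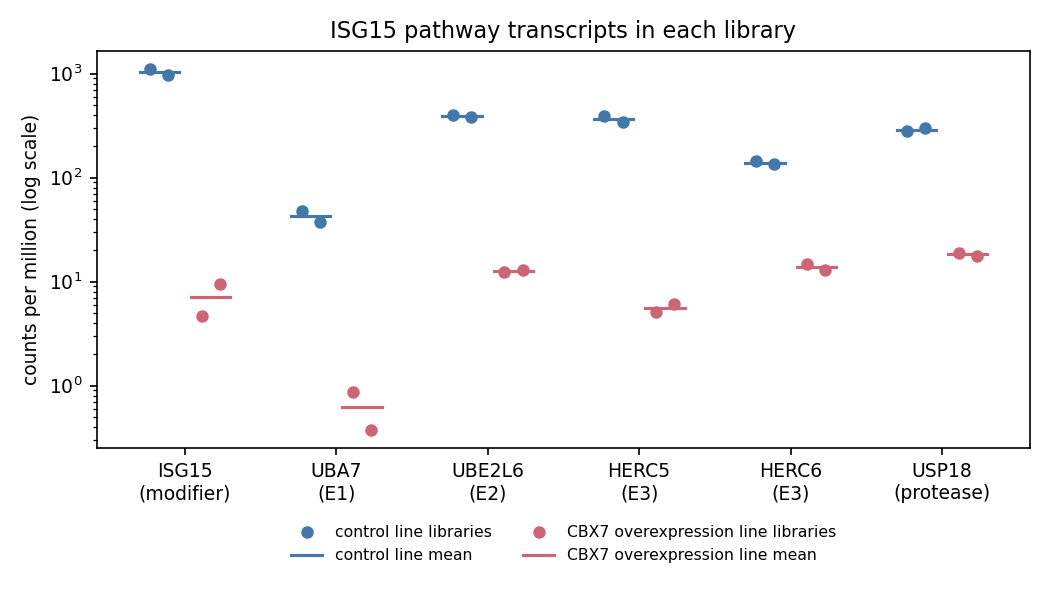
CPM on a log axis for the 6 genes, ordered by their step in the pathway. Points are single libraries (control in blue, CBX7 overexpression in red) and lines are means of 2 libraries. In every gene both CBX7 libraries lie below both control libraries, and the points of ISG15 (4.63 and 9.54) and UBA7 (0.865 and 0.377) are the most spread in the CBX7 line.

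ISG15 (chromosome 1, 1013497 to 1014540, GRCh38) encodes the modifier itself. It had 95627 and 65512 counts in control libraries 1 and 2, or 1110 and 960 CPM, and 433 and 860 counts in CBX7 libraries 1 and 2, or 4.63 and 9.54 CPM. Both control libraries were high, and CBX7 library 2 held 2.06 times the CPM of CBX7 library 1, the widest relative gap within the controls or the CBX7 line apart from that of UBA7. The CBX7 mean was 0.684% of the control mean. The log2 change was -7.19 (SE 0.601, adjusted p = 0.0202), the 93rd lowest of all tested genes. The direction held in every alternative, with log2 changes from -7.80 to -6.76, but the call did not. It was lost in 3 of 12 alternatives: without control library 1, without control library 2 and with the replicate number as a block (adjusted p = 0.116). Without robust estimation, on all 4 libraries, the adjusted p was 9.86e-08. DESeq2 and limma-voom, run on all 4 libraries, gave adjusted p of 4.35e-44 and 1.38e-10.

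The sequence ahead of the ISG15 start is shown because interferon acts on such genes through an element known as the ISRE, bound by a complex that includes STAT2 and IRF9. Its core was searched as GAAA, any 2 bases and a further GAAA, on both strands of RefSeq windows from 250 bases before to 50 bases after a gene's start (GRCh38.p14). In the ISG15 window 2 overlapping matches begin at -113 and -107 from the start, at chromosome 1, 1013384 to 1013399. The stretch below is chr1:1013263-1013422, plus strand, 160 bases that end before the most upstream annotated start in the window, with the matched bases in capitals.
ISG15: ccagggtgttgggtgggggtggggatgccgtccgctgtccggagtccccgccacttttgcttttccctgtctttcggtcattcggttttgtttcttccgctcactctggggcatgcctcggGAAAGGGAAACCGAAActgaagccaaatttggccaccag
The motif was found in 3.57% of all 35116 windows, and 0.259% held 2 or more matches. A match is a description of the letters and not evidence of binding.

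UBA7 (chromosome 3, 49805209 to 49813953, GRCh38), the activating enzyme that charges UBE2L6 with ISG15, was the lowest of the 6 per length in both lines. Its counts were 4148 and 2535 in the controls, or 48.2 and 37.2 CPM, and 81 and 34 in the CBX7 libraries, or 0.865 and 0.377 CPM. What was left was 1.46% of the control mean, and in contrast to ISG15 the higher CBX7 library was library 1. The log2 change was -6.09 (SE 0.355, adjusted p = 4.05e-05), and it ran from -6.81 to -5.61 over the alternatives with an adjusted p of at most 0.000748. The microRNA gene MIR5193 lies inside UBA7 and had 1 count in each of the 4 libraries.

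UBE2L6 (chromosome 11, 57551662 to 57567935, GRCh38) is the conjugating enzyme for ISG15 and can also carry ubiquitin. Control libraries 1 and 2 had 34742 and 25843 counts, or 403 and 379 CPM, and CBX7 libraries 1 and 2 had 1164 and 1167, or 12.4 and 12.9 CPM. Libraries of the same line lay close together, and 3.24% of the control mean was left. The log2 change of -4.95 (SE 0.111, adjusted p = 1.01e-12) kept between -4.98 and -4.88 over the alternatives. UBE2L3, its closest relative and an E2 for ubiquitin, was at 198 ± 15.2 and 203 ± 16.8 CPM (log2 change 0.038, SE 0.101, adjusted p = 0.845). Neither of the 2 RefSeq windows of UBE2L6 held the ISRE core.

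HERC5 (chromosome 4, 88457119 to 88506163, GRCh38), the main ISG15 ligase of human cells, had 33775 and 23154 control counts, or 392 and 339 CPM. In the CBX7 libraries it had 476 and 546, or 5.08 and 6.05 CPM. The remainder was 1.52% of the control mean, and the log2 change was -6.04 (SE 0.138, adjusted p = 1.19e-12). HERC6 (chromosome 4, 88378852 to 88443097, GRCh38), upstream of HERC5 on the same strand, had 12346 and 9248 control counts, or 143 and 136 CPM, and 1378 and 1176 in the CBX7 libraries, or 14.7 and 13.04 CPM. Of its control mean 9.95% was left, the largest remainder of the 6, with a log2 change of -3.33 (SE 0.122, adjusted p = 8.99e-11). Scaled for transcript length as described below, HERC5 was above HERC6 in both control libraries and below it in both CBX7 libraries.

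The windows of this neighbouring pair are shown side by side because the 2 genes differed in the size of their fall. HERC5 held 3 matches of the same core, overlaps included, all on the strand opposite to the gene, at -125, -119 and -74 from the start. They therefore read as their reverse complement in the stretch chr4:88456957-88457116, plus strand. HERC6 held 0 matches in its window, of which chr4:88378602-88378738, plus strand, lies before every annotated start. Capitals mark matched bases.
HERC5: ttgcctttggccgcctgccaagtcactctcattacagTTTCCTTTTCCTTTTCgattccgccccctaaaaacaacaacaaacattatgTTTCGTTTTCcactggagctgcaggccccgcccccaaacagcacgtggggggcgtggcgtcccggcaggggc
HERC6: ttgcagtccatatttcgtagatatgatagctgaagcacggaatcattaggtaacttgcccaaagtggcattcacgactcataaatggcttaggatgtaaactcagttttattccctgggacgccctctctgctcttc
That no match was found in HERC6 says only that these letters are not in this window. A second motif, the STAT core (TTC, any 3 bases, GAA), was found in 7.66% of all windows and in 0 of the 5 windows of the 4 members with an entry in the table, ISG15, HERC5, HERC6 and UBE2L6.

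USP18 (chromosome 22, 18150170 to 18177397, GRCh38) is the step that reverses conjugation. It had 23993 and 20264 control counts, or 279 and 297 CPM, and 1765 and 1602 in the CBX7 libraries, or 18.9 and 17.8 CPM. The 4 libraries fell into tight pairs, and 6.36% of the control mean was left. The log2 change was -3.97 (SE 0.111, adjusted p = 5.66e-12), from -4.02 to -3.91 over the alternatives. USP18 has a near-identical copy, USP41, for which the deposited table has no row under that symbol. How shared reads were counted is not given in the sources used here, so the level of USP18 is uncertain.

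To set levels of different genes side by side, CPM was divided by the length in kilobases of the longest RefSeq-linked GENCODE transcript, from 637 bases for ISG15 to 3781 for HERC6. In the controls ISG15 stood at 1625 ± 167 CPM per kilobase (SD, n = 2), followed by UBE2L6 at 249 ± 11.0, USP18 at 135 ± 6.13, HERC5 at 104 ± 10.6, HERC6 at 36.9 ± 1.46 and UBA7 at 12.9 ± 2.36. No neighbours in that order overlapped between libraries. In the CBX7 line ISG15 was at 11.1 ± 5.45, USP18 at 8.60 ± 0.362, UBE2L6 at 8.07 ± 0.227, HERC6 at 3.67 ± 0.314, HERC5 at 1.59 ± 0.195 and UBA7 at 0.188 ± 0.105. There the first 3 could not be ordered: ISG15 libraries at 7.26 and 14.97 spanned USP18 and UBE2L6, and with the shorter UBE2L6 transcript of 1354 bases UBE2L6 came before USP18. ISG15 made up 76.0% and 74.2% of the summed length-scaled level of the 6 genes in control libraries 1 and 2, and 24.5% and 40.7% in CBX7 libraries 1 and 2. USP18 made up 5.70% and 6.87%, then 29.9% and 22.7%. The sum itself was 2295 and 2032 CPM per kilobase in the controls and 29.6 and 36.8 in the CBX7 libraries.

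The steps thus kept different shares of their transcripts, which was examined as log2 ratios of counts within a library (with 0.5 added to each count), a measure free of library scaling. USP18 to ISG15, the protease against the modifier, was at -1.99 and -1.69 in the controls and 2.03 and 0.90 in the CBX7 libraries, a difference of 3.31 or 9.89-fold. Control libraries thus held more ISG15 than USP18 counts and CBX7 libraries the reverse, before any scaling for length. HERC5 to HERC6 went from 1.45 and 1.32 to -1.53 and -1.11, a difference of -2.71. UBE2L6 to UBA7 went from 3.07 and 3.35 to 3.84 and 5.08, a difference of 1.25. Leaving out CBX7 library 1 gave 1.87, and leaving out CBX7 library 2 gave 0.63. HERC5 to UBE2L6 went from -0.041 and -0.16 to -1.29 and -1.10, and UBE2L6 to UBE2L3 from 1.11 and 0.86 to -3.94 and -4.05. None of the 5 ratios overlapped between the lines. With 2 libraries against 2 the two-sided exact permutation test cannot give a p below 0.333, which all 5 reached (0.333 adjusted over the 5), so these differences are descriptions.

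**Figure D2:**
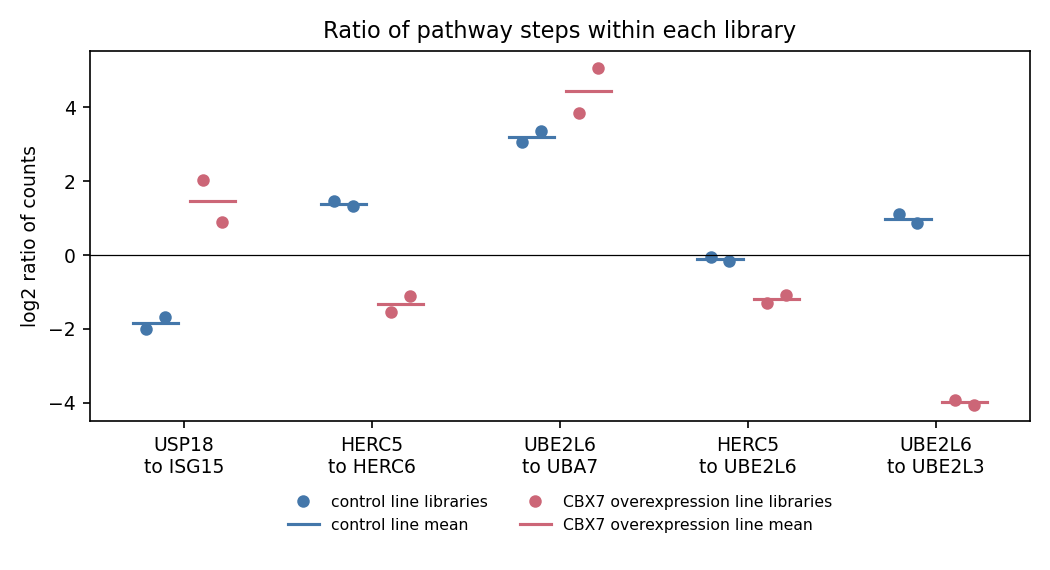
Log2 ratios of counts between pairs of genes in each library, with means as lines (control in blue, CBX7 overexpression in red). USP18 to ISG15 lies below 0 in both controls and above 0 in both CBX7 libraries, HERC5 to HERC6 does the reverse, and UBE2L6 to UBE2L3 shows the widest gap, -4.98.

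Relatives of each enzyme serve ubiquitin or other modifiers. Of the other E1 genes 22.2% were called lower and of the other E2 genes 20.6%, against 13.9% of all tested genes. Of 9 other E1 genes, 2 were lower and 7 not called: UBA6, the E1 for ubiquitin and FAT10, fell from 92.9 ± 12.2 to 62.9 ± 3.83 CPM (log2 change -0.56, adjusted p = 0.00365) and ATG7, the E1 of autophagy, had -0.54 (0.00499, but 0.0886 without CBX7 library 1). UBA1, the main ubiquitin E1, was at 389 ± 36.3 and 370 ± 3.22 CPM (adjusted p = 0.657). Of 34 other E2 genes, 7 were lower, 3 higher and 24 not called. UBE2Z, which takes FAT10 from UBA6, fell from 322 ± 23.2 to 194 ± 5.92 CPM (log2 change -0.73, adjusted p = 7.32e-05), UBE2O and UBE2H fell with log2 changes of -0.58 and -0.48, and UBE2S, an E2 of the anaphase-promoting complex, rose with 0.44. UBE2C and UBE2E3 were the other 2 higher (0.35 and 0.37). UBE2C lost its call without control library 1 (0.123), without either CBX7 library (0.0624 and 0.293) and without robust estimation (0.0539), over a range of 0.0114 to 0.293. UBE2E3 lost it without control library 2 (0.0584) and without either CBX7 library (0.0723 and 0.242), over a range of 0.00696 to 0.242. For UBE2H the adjusted p was 0.0561 without CBX7 library 2. The E2 counts were 4 lower and 1 higher without CBX7 library 1, and 1 higher without CBX7 library 2.

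Among the other HERC ligases, HERC1 and HERC2, the large members of the family, were higher (log2 changes 0.37 and 0.37, adjusted p of 0.0275 and 0.0171), HERC4 was lower (-0.34, 0.0475) and HERC3 was not called (12.2 ± 0.494 and 10.6 ± 1.66 CPM, 0.442). These 3 calls did not hold in all alternatives, and over all tested genes 24.4% were called. HERC1 lost its call without control library 1 (0.0649) or 2 (0.0541) and without CBX7 library 1 (0.310), and HERC2 without control library 1 (0.0915) or CBX7 library 1 (0.217). HERC4 lost it without control library 1 (0.197), CBX7 library 1 (0.100) or CBX7 library 2 (0.349), with library totals (0.105) and without robust estimation (0.0658). Adjusted p over the 12 alternatives ran from 0.00669 to 0.310 for HERC1, from 0.00258 to 0.217 for HERC2 and from 0.0201 to 0.349 for HERC4.

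Of 20 genes for ubiquitin and its other relatives, 4 were lower (20%, against 13.9% of all tested genes) and 16 not called. UBD, which encodes FAT10, another interferon-inducible modifier, had 702 and 437 control counts against 126 and 42 in the CBX7 libraries (7.28 ± 1.23 to 0.906 ± 0.622 CPM, log2 change -3.003, adjusted p = 0.000516). The autophagy modifiers ATG12 and MAP1LC3B fell with log2 changes of -0.57 and -0.51. Up to 2 of the 20 were higher in alternatives, as with library totals or without control library 2. Among 48 tested USP proteases other than USP18, 12 were lower (25%), 35 not called and 1 higher, with a median of -0.11. CYLD and USP15, which cleave ubiquitin chains, fell with log2 changes of -1.35 and -1.22, and USP36 and USP49 with -0.61 and -1.04. USP44 had 11 and 51 counts in the controls and none in either CBX7 library, at least 13.4-fold lower against a floor of 3 counts per library, a bound that assumes that no reads lie behind the zeros. It rests mainly on control library 2 and is at least 3.91-fold without it and at least 22.9-fold without control library 1, settings chosen after seeing the data. USP34 was the 1 that was higher (0.30, adjusted p = 0.0484), and its call was lost without control library 2 (0.203), without CBX7 library 1 (0.375), with DESeq2 size factors (0.0507) and without robust estimation (0.0682), over a range of 0.017 to 0.375. Between 0 and 3 USP genes were higher over the alternatives.

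**Figure D3:**
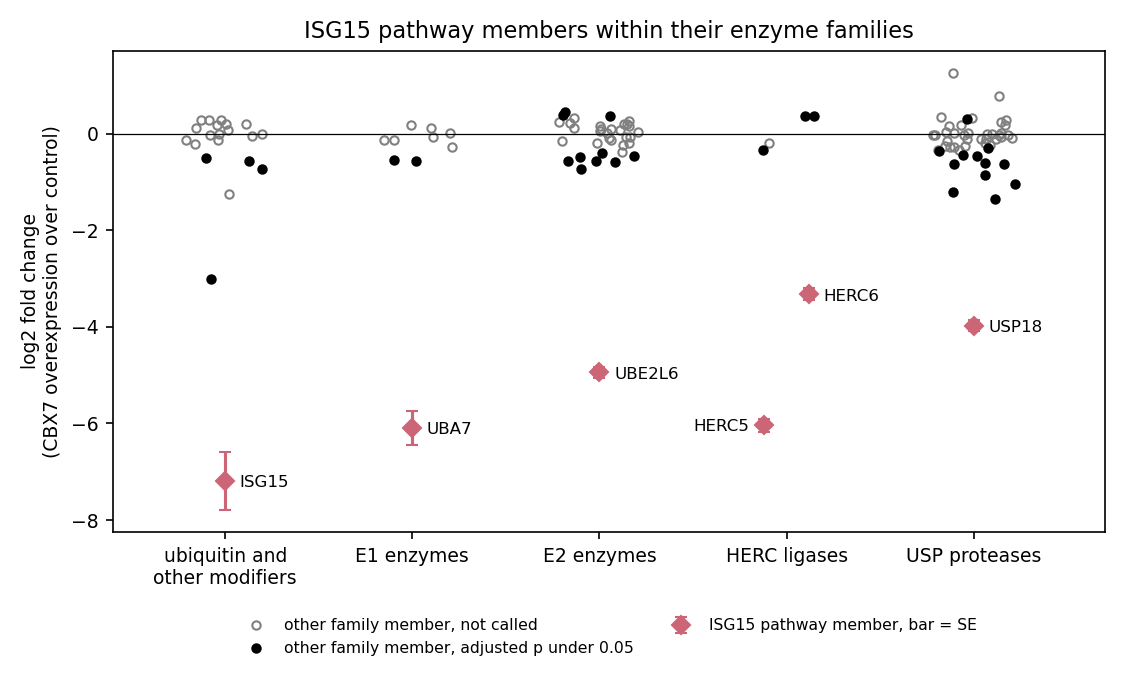
Log2 fold changes (CBX7 overexpression over control) of the 6 genes as red diamonds with SE bars, beside the tested members of their families as circles, filled where the adjusted p was under 0.05. The 6 lie between -7.19 and -3.33, and among the relatives drawn UBD at -3.003 comes nearest. USP44, at 0 counts in both CBX7 libraries, is not drawn.

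Enzymes other than HERC5 and USP18 that have been reported to attach or remove ISG15 were measured as a list of 9 (TRIM25, ARIH1 and 7 USP proteases). TRIM25, a ligase that also activates the sensor RIG-I, had 52417 and 42986 control counts and 10004 and 9668 in the CBX7 libraries (619 ± 15.2 to 107 ± 0.238 CPM, log2 change -2.53, adjusted p = 1.40e-10). It was the 1 called (11.1% lower, against 13.9% of all tested genes), and the list median was -0.019. ARIH1 was at 128 ± 11.2 and 112 ± 2.33 CPM (adjusted p = 0.216), and USP5, USP14, USP16, USP21 and USP24 were not called either, with adjusted p from 0.0836 to 0.923. In 5 of 12 alternatives 1 gene of this list was called higher.

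The interferon receptors and signalling factors that switch these genes on were mixed. Of 12, 6 were lower (50%, against 13.9% of all tested genes) and 6 not called. STAT2 fell from 205 ± 7.98 to 17.3 ± 2.38 CPM and IRF9 from 125 ± 0.0072 to 21.5 ± 6.85, with log2 changes of -3.57 and -2.54. IRF7 and IRF1, further activators of interferon genes, fell with -5.17 and -4.08. IFNAR2, the receptor subunit that USP18 binds, fell with -0.44 (adjusted p = 0.0095), while IFNAR1 was at 51.2 and 50.6 CPM (0.931), JAK1 at 245 and 225 (0.381) and IRF3 at 33.8 and 35.7 (0.716).

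Proteins reported to carry ISG15 were followed through 27 tested genes, of which 13 were lower, 13 not called and 1 higher (48.1% lower, against 13.9% of all tested genes). Several are themselves interferon-induced. The RNA sensors IFIH1 (MDA5) and DDX58 (RIG-I) fell from 415 ± 50.3 to 7.75 ± 0.874 CPM and from 573 ± 71.8 to 15.3 ± 3.04 CPM, TRIM25 fell as above, and the kinase EIF2AK2 (PKR) fell with a log2 change of -2.19. HIF1A was the 1 that was higher (0.34, adjusted p = 0.019), but its call was lost without control library 2 (0.0881), CBX7 library 1 (0.106) or CBX7 library 2 (0.0573), over a range of 0.0012 to 0.106. JAK1 and IRF3, also reported carriers, were not called.

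The OAS and IFIT genes, antiviral RNA sensors and RNA binders of the same response, gave a scale for the size of the fall. In the OAS family all 4 were lower, with log2 changes from -10.44 for OAS2 to -3.66 for OAS3 and a median of -5.75. In the IFIT family all 4 were lower as well, from -8.03 for IFIT2 to -2.94 for IFIT5, with a median of -7.72. The 6 ISG15 pathway genes had a median of -5.49 and a range of -7.19 to -3.33. All 6 lay inside the range of the IFIT family, and all but HERC6 inside that of the OAS family. The difference between these groups was not tested. OASL and IFIT1 showed the same pattern as ISG15 in their calls: adjusted p was 0.0132 and 0.0309 with all libraries, and 0.126 and 0.184 without control library 1, 0.0633 and 0.108 without control library 2 and 0.0704 and 0.130 with the replicate block. As in ISG15, CBX7 library 2 was the higher CBX7 library in both, with 265 against 124 counts for OASL and 1553 against 709 for IFIT1.

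For each member the 2 genes of most similar pattern were taken by the smallest Euclidean distance between centred log2 CPM profiles over the 4 libraries, among 14512 other genes. With 4 libraries this is a description of likeness. ISG15 was nearest to IFITM1, a membrane protein that blocks virus entry (distance 0.0763), which had 19871 and 13097 control counts and 87 and 165 in the CBX7 libraries. LGALS9 came next. UBA7 was nearest to SMTNL1 (0.271) and the nucleic acid sensor ZBP1 (0.622), whose counts in the CBX7 libraries were 4 and 0 and 6 and 0. At such counts the profile depends in large part on the prior count of 2 added before the log. UBE2L6 was nearest to RAET1L and the complement factor CFB, and HERC5 to DHX58 (LGP2, a RIG-I relative) and PARP10. HERC6 was nearest to PPP1R15A, a phosphatase subunit of the stress response (0.0803), and to SAMHD1, a restriction factor that depletes nucleotides (0.0867), and USP18 to PARP12 (0.0712) and NLRC5, the transactivator of class I antigen presentation genes (0.0997). Within the 6, HERC6 and USP18 were nearest to each other (0.659), while ISG15 and HERC6 were farthest apart (4.04).

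The chromosomal surroundings of the 6 genes differed from locus to locus. Of 20 other genes among the 2 nearest rows on each side, 16 were tested, of which 7 were lower and 9 not called. Over all tested genes 13.9% were called lower. Beside HERC6 and HERC5 on chromosome 4, PPM1K, a mitochondrial phosphatase, fell from 38.5 ± 5.96 to 1.71 ± 0.486 CPM (log2 change -4.49, adjusted p = 1.29e-09). Its divergent transcript PPM1K-DT had 13 and 47 counts in the controls and none in either CBX7 library, at least 12.9-fold lower against the same floor and under the same condition on zeros (adjusted p = 0.00964). That bound is at least 4.62-fold without control library 2 and at least 21.1-fold without control library 1. On the other side PYURF had a log2 change of -0.46 (adjusted p = 0.00677, but 0.113 without CBX7 library 1). PIGY shares the coordinates of PYURF, so the split between them is uncertain.

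UBE2L6 lay between 2 genes that were also lower. SMTNL1 had 295 and 159 control counts against 4 and 0 in the CBX7 libraries (adjusted p = 9.41e-06), and SERPING1, the C1 inhibitor of complement, had 114 and 57 against 4 and 4 (0.000925). Next to ISG15, HES4 fell from 13.6 ± 1.19 to 5.16 ± 0.864 CPM (log2 change -1.40) and LOC100288175 from 5.44 ± 1.02 to 0.756 ± 0.374 CPM (-2.84), while AGRN, the nearest gene downstream, was at 304 ± 5.97 and 260 ± 24.0 CPM (adjusted p = 0.110). No tested neighbour of UBA7 or USP18 was called, though CDHR4 near UBA7 passed in 1 of 12 alternatives. TIMM10, beyond SMTNL1, was not called (0.0546) but was higher at the threshold in 6 of 12 alternatives, with adjusted p from 0.0226 to 0.304. Whether counts of a neighbour hold reads that run on from a member was not tested.

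**Figure D4:**
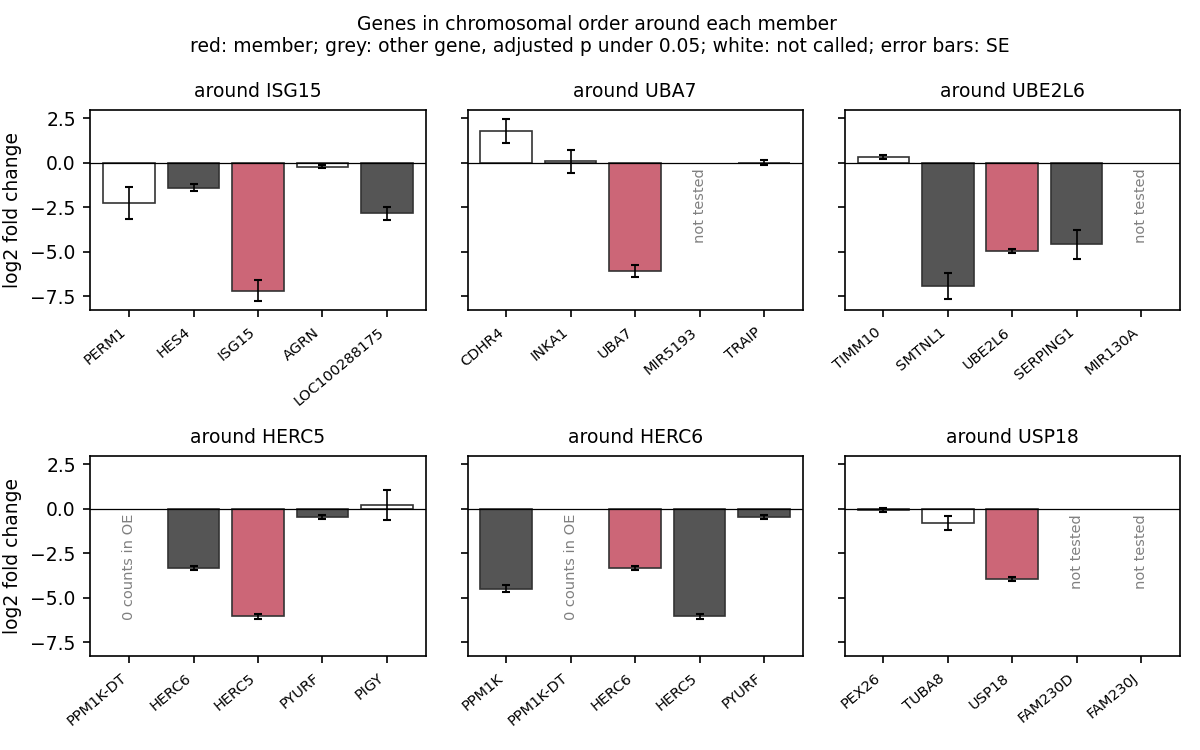
Log2 fold changes (CBX7 overexpression over control, SE as error bars) of each member and the 2 nearest genes on each side in chromosomal order. The member that a panel is centred on is red, other genes with an adjusted p under 0.05 are grey and genes not called are white. HERC5 and HERC6 are therefore grey in each other's panel. Genes not tested, and PPM1K-DT with 0 counts in both CBX7 libraries, have no bar. Lower genes stand beside ISG15, UBE2L6, HERC5 and HERC6, while the tested neighbours of UBA7 and USP18 are white.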

How the data were processed

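RNA of 4 libraries of A549 cells was sequenced. The authors deposited 1 table of estimated counts per gene, all whole numbers, so rounding changed none. The tools StringTie 2.2.1, HISAT2 2.2.1 and DESeq2 and the build hg38 are named per the submitters' processing notes, with no role given. Not given in the sources used here are the annotation, the strand setting and the treatment of shared reads. All 4 count columns matched samples by title.

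Counts were tested with edgeR 4.0.16 in R 4.3.3 (filterByExpr, TMM factors, robust quasi-likelihood fit with a group term), with Benjamini-Hochberg adjustment over 17271 genes and a call at 0.05. The SE is the size of the log2 change over the square root of its F. A floor of 3 counts was 0.0320 to 0.0440 CPM. It covers counting error only, and PCR copies are not independent molecules. The count tests were tested on simulated data with planted log2 changes of size 1 and 3. The changes of the 6 members were larger, so that run does not cover them.

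The members and lists were chosen with earlier results of these data known. Named are the 6 members, CBX7, SOCS3, the 2 genes of nearest pattern per member (mean normalised count of 50 or more), 2 neighbours per side, and per list up to 4 genes of smallest p or those behind counts of 5 or fewer. Some that the rule selects are not reported here, and further list genes such as UBE2L3, UBA1 and ARIH1 were chosen after their values were seen. Lists were written from general knowledge and overlap in part. List medians were the same with genes at 0 set to their bound. Alternatives were DESeq2 1.42.0, limma-voom 3.58.1, other size factors, filters, no robust estimation, the replicate block and leaving out each library. Positions and promoter windows are RefSeq's (GRCh38.p14), transcript lengths those of GENCODE 29.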

Additional observations from a re-analysis of the deposited data

How the results depend on the processing

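Over 12 alternatives the 6 members, CBX7 and SOCS3 kept their direction, and all kept their call except ISG15. Its log2 fold change was -7.26 with the replicate block (adjusted p = 0.116) and ran from -7.80 to -6.76 when 1 library was left out. The call of ISG15 was lost without either control library. Where a line was left with 1 library, that library was assumed to vary like those of the other line. The number of members called lower was 6 in 9 alternatives and 5 with the replicate block and without either control library. Replicate numbers pair nothing in the labels, and deviations of same-numbered libraries correlated at 0.028 across genes. With 2 libraries per line, that cannot settle whether same-numbered libraries were handled together. The block moved the count of calls from 4208 to 4603. With 1 library left out, the calls ran from 2729 to 3924 over all genes, from 1021 to 1790 for higher genes and from 1689 to 2134 for lower genes. Without length scaling the order of levels changed for HERC5 and USP18 in the controls and for ISG15, HERC6 and USP18 in the CBX7 line. The shorter transcript, an alternative chosen after seeing the data, exchanged UBE2L6 and USP18 in the CBX7 line. At 81 and 34 counts in the CBX7 line, UBA7 has the least depth of the 6.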
